A study of Mus musculus with 20 samples.

Results

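The 9 genes of peroxisomal fatty acid oxidation described here are Ehhadh, Hsd17b4, Acaa1a, Acaa1b and Ech1, which encode enzymes of the cycle, Abcd2 and Abcd3, which encode acyl-CoA transporters of the peroxisomal membrane, Crot, which encodes an acyltransferase of the export step, and Pex11a, a gene of peroxisome division. They were taken by symbol from the table of 55487 genes, and all 9 were among the 16312 genes tested. RNA was sequenced from liver of female C57BL/6N mice at 15 weeks of age, and 20 libraries fell into 4 groups of 5. These were Plin2-null mice after 24 h without food, Plin2-null mice on chow, Plin2+/+ mice after 24 h without food, and Plin2+/+ mice on chow. PLIN2 (perilipin 2) is a coat protein of cytosolic lipid droplets. The labels of the 10 libraries called Plin2-null give a feeding state and no genotype; the design text names only Plin2+/+ and Plin2-/- mice, and the genotype was read from it by elimination. The sources used here do not say how the Plin2 allele was made or which mice were littermates.

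Peroxisomes shorten fatty acids that mitochondria handle poorly, such as very-long-chain, branched and dicarboxylic acids. Acyl-CoA enters through ABC transporters, a first oxidation releases hydrogen peroxide, a bifunctional enzyme adds water and oxidises the product, and a thiolase cuts off acetyl-CoA. The shortened chains leave as carnitine esters and are finished in mitochondria. In rodent liver many of these genes are known targets of the nuclear receptor PPARA, which fatty acids activate during fasting.

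Total counts were 25506471 to 65579038 per library, and every one of the 9 genes had at least 1059 counts in every library, so counting error was small beside the spread between libraries. Plin2 itself averaged 90.5 ± 22.6 CPM in Plin2-null fasted livers, against 1494 ± 240.1 CPM in Plin2+/+ fasted livers (SD, n = 5 each). In the fed state it averaged 19.7 ± 6.96 CPM in Plin2-null and 260.3 ± 58.2 CPM in Plin2+/+ livers, and no null library overlapped a Plin2+/+ library in either state. CPM here is the count divided by the TMM-corrected library size, in the usual CPM unit. Summed hepatocyte markers (6 genes) ran from 83490.3 to 117169 CPM in Plin2-null fasted, 85837 to 104307 in Plin2-null fed, 107705 to 162969 in Plin2+/+ fasted and 91609.6 to 138089 in Plin2+/+ fed livers, and the 5 adipocyte markers summed to at most 0.214 CPM with at least 3 of them at 0 in each group. Summed Kupffer cell markers (6 genes) ran from 232 to 292 CPM in Plin2-null fasted, 242 to 597 in Plin2-null fed, 167 to 299 in Plin2+/+ fasted and 314 to 407 in Plin2+/+ fed livers. Of those 6 markers 4 fell on fasting in each genotype. Summed cholangiocyte markers (5 genes) were lower in fasted livers as well, at 17.0 to 25.6 CPM in Plin2-null fasted, 29.9 to 48.1 in Plin2-null fed, 12.2 to 23.1 in Plin2+/+ fasted and 33.0 to 51.1 in Plin2+/+ fed livers. Summed acinar markers (4 genes) ran from 3.72 to 5.89 CPM in Plin2-null fasted, 15.1 to 27.9 in Plin2-null fed, 2.74 to 4.25 in Plin2+/+ fasted and 7.97 to 20.5 in Plin2+/+ fed livers, and lymphocyte markers (5 genes) from 2.51 to 4.47, 3.34 to 4.34, 1.36 to 2.99 and 3.98 to 4.94 CPM in the same groups. On fasting 2 of 2 tested acinar markers fell in each genotype. Of 5 each, 2 stellate, 1 cholangiocyte and 0 lymphocyte markers fell in Plin2-null mice and 3 of each in Plin2+/+ mice. Summed stellate markers overlapped between states, at 317 to 434 CPM in Plin2-null fasted and 338 to 441 in Plin2-null fed livers. In Plin2+/+ mice they ran from 304 to 433 CPM in fasted and 332 to 528 in fed livers. Of 5 endothelial markers 2 rose and 1 fell in Plin2-null mice and 2 rose and 2 fell in Plin2+/+ mice. Of 4 erythroid markers 1 fell in each genotype. Of the 6 hepatocyte markers 2 rose and 1 fell on fasting in Plin2-null mice and 4 rose and 1 fell in Plin2+/+ mice; in fasted mice 1 hepatocyte marker was called lower and 2 of 5 stellate and 1 of 5 lymphocyte markers higher in Plin2-null than in Plin2+/+ livers. The part of these cells in the results below was not tested. Reads of 18S rRNA-like sequence took 6.16 to 24.8% of the counts in Plin2-null fasted, 5.54 to 12.0% in Plin2-null fed, 4.87 to 14.2% in Plin2+/+ fasted and 5.13 to 14.2% in Plin2+/+ fed libraries. In whole tissue, fewer cells of a type and less RNA per cell cannot be told apart. The labels name no litter, batch or date, and the p-values reflect only how these samples vary, which may be in part technical.

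On fasting, 7 of the 9 genes rose in Plin2-null livers and 7 of the 9 rose in Plin2+/+ livers: both bifunctional enzymes, both thiolases, Ech1, Abcd3 and Pex11a. Crot and Abcd2 passed the test in neither genotype. None of the 9 fell. Of all tested genes 18.0% were called higher and 18.1% lower on fasting in Plin2-null mice, and 20.9% higher and 21.7% lower in Plin2+/+ mice (edgeR quasi-likelihood test, Benjamini-Hochberg adjusted p under 0.05). The median log2 fold change of the 9 genes was 1.73 in Plin2-null and 1.39 in Plin2+/+ mice, beside -0.01 over all tested genes in each. Every fasted library lay above every fed library for 7 of the 9 genes in Plin2-null mice, where 12.6% of all genes did so, and for 6 of the 9 in Plin2+/+ mice, where 13.2% did. With library size as the only scaling the median of all genes shifted by -0.21 in Plin2-null and -0.16 in Plin2+/+ mice; 1376 genes were then called higher and 4243 lower in Plin2-null mice, against 2942 and 2954 with TMM, and 1854 and 4173 in Plin2+/+ mice, against 3416 and 3541. The same 7 of the 9 genes passed upward with either scaling.

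**Figure D1:**
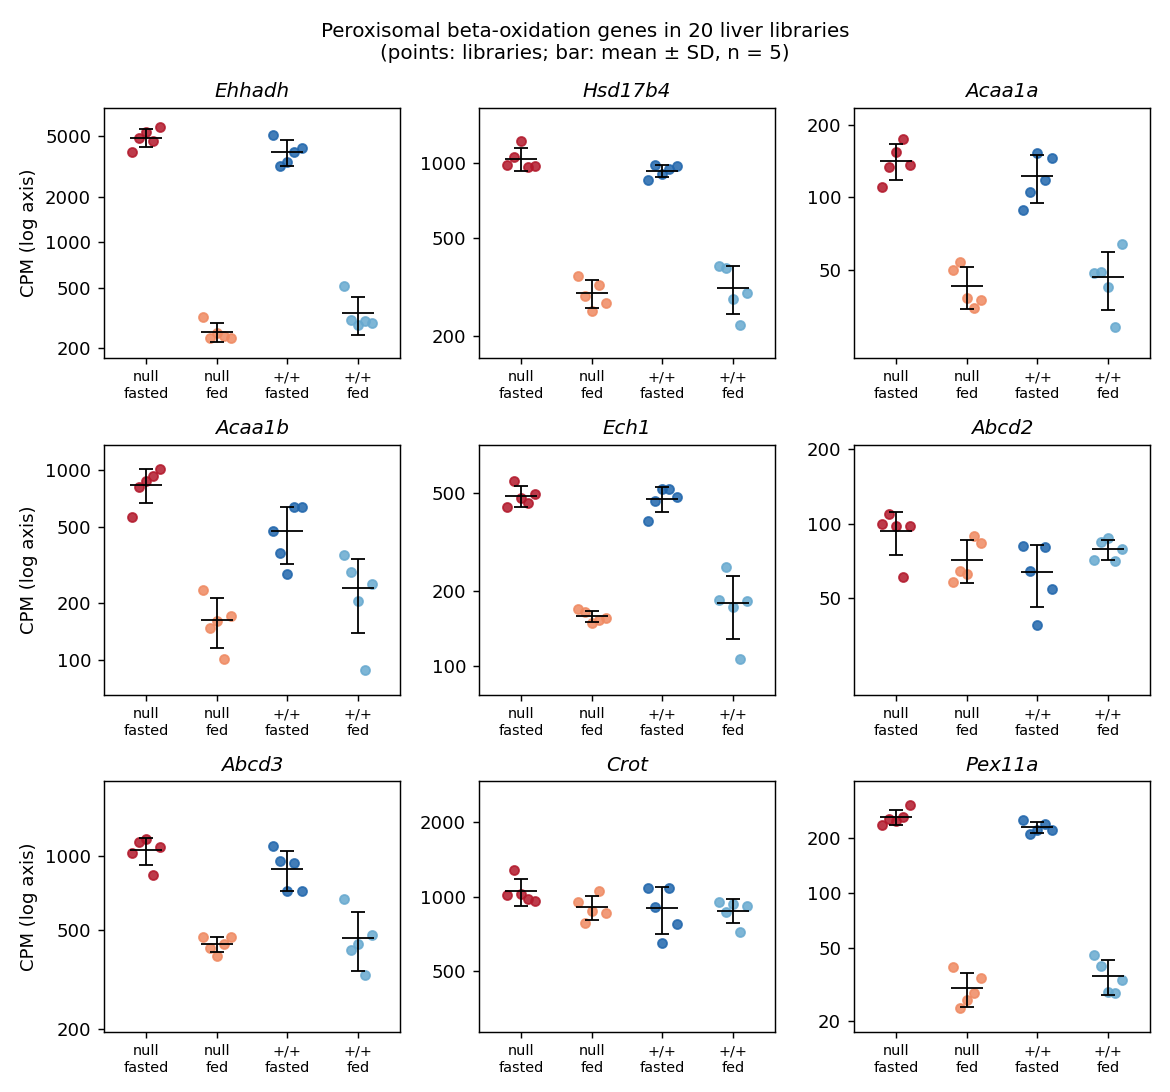
CPM of the 9 genes in each of 20 liver libraries (log axis, 1 panel per gene, 4 groups of 5 libraries; points are libraries, bars are mean ± SD). The fasted groups stand clear of the fed groups for Ehhadh and Pex11a in both genotypes, while the 4 groups overlap for Crot and Abcd2.

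The levels were compared between genes in the TPM values of the authors (counts per length, scaled to 1 sum per library). The lengths follow merged exons, not single transcripts. Ehhadh has 2981 bases by either measure, but merged exons are longer for the other genes. Acaa1a has 4414 bases of merged exons, Crot 5456, Abcd3 6593 and Ech1 2284. Single transcripts of these genes have 1762, 2996, 3489 and 1267 bases. The order and shares below hold for merged-exon lengths and were not recomputed with transcript lengths. The 9 genes summed to 7117 ± 1430.4 TPM in Plin2-null fasted livers, against 1658 ± 134 TPM in Plin2-null livers on chow (SD, n = 5 each). The sums were 5938 ± 1514 TPM in Plin2+/+ fasted and 1782 ± 442 TPM in Plin2+/+ fed livers. Ehhadh led the fasted order with 3812 ± 851 TPM in Plin2-null and 3227 ± 1048 TPM in Plin2+/+ livers, which was 53.6% and 54.3% of the sum, and its range was apart from that of the next gene. In fed livers Crot came first, with 466 ± 52.8 TPM in Plin2-null livers, apart from the next gene, and 424 ± 51.8 TPM in Plin2+/+ livers, where its range overlapped that of Acaa1b. Ehhadh was then 14.6% and 17.1% of the sum.

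Below Ehhadh, the fasted order in Plin2-null livers was Acaa1b (1002 ± 310.5 TPM), Hsd17b4 (699.7 ± 69.0), Ech1 (491 ± 91.3), Crot (445 ± 81.9) and Abcd3 (365 ± 49.6). Of these, Acaa1b overlapped Hsd17b4, Ech1 overlapped Crot and Crot overlapped Abcd3, so those neighbours are not ordered beyond their spread. Pex11a (191 ± 47.0 TPM), Acaa1a (75.0 ± 21.1) and Abcd2 (35.8 ± 7.57) followed, each apart from the gene before it. Plin2+/+ fasted livers had Hsd17b4 (650.5 ± 79.7 TPM) before Acaa1b (594 ± 238), with overlapping ranges, and otherwise the same sequence of genes, in which the neighbours from Hsd17b4 to Abcd3 overlapped. Acaa1b, Hsd17b4, Ehhadh, Ech1 and Abcd3 lay between 188 and 323 mean TPM in fed livers of both genotypes and overlapped their neighbours. Abcd2, Acaa1a and Pex11a formed the low end in fed livers, at 26.7 to 34.8 mean TPM.

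**Figure D2:**
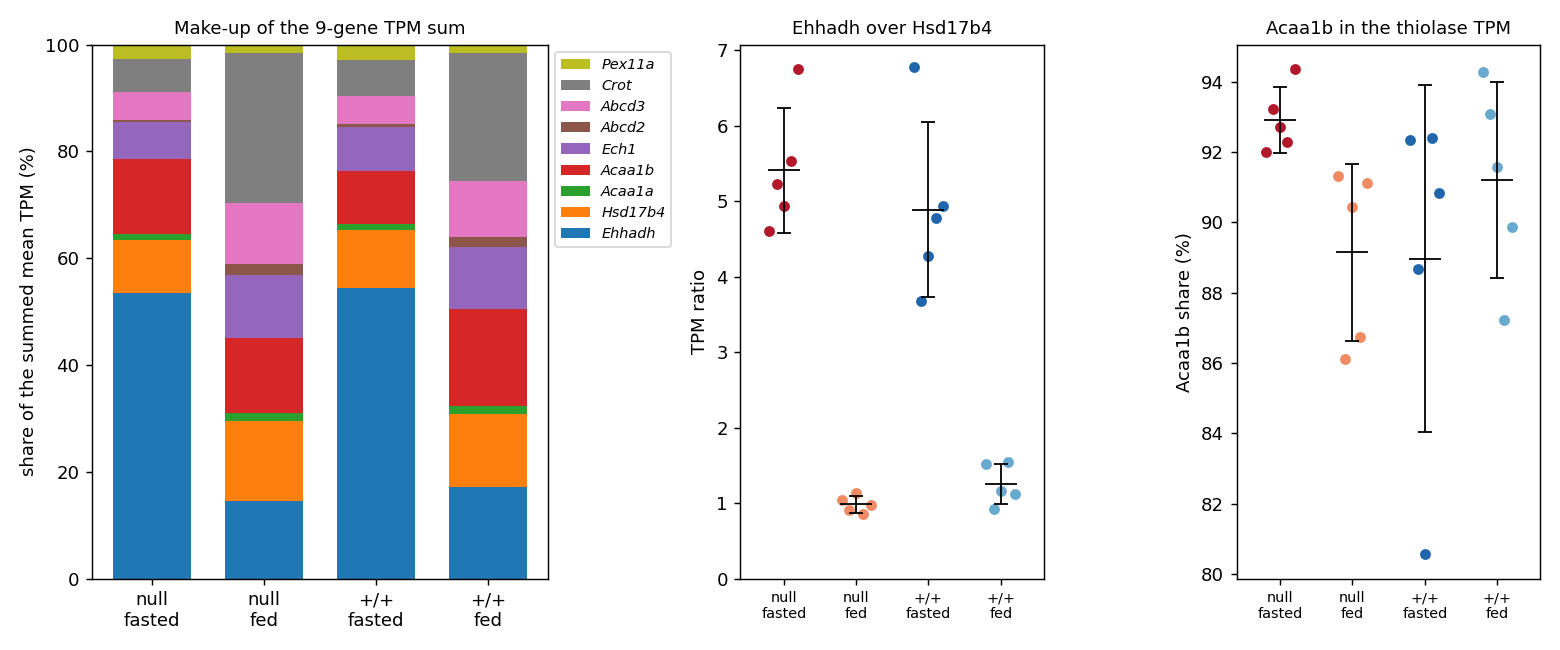
Left, the share of each gene in the summed mean TPM of the 9 genes, per group (percent, stacked to 100). Middle, the TPM ratio of Ehhadh to Hsd17b4, and right, the share of Acaa1b in the TPM of Acaa1a plus Acaa1b (percent, axis not from 0), per library with mean ± SD, n = 5. Ehhadh fills 53.6% of the Plin2-null fasted bar and 14.6% of the Plin2-null fed bar.

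The bifunctional enzymes catalyse the hydration and second oxidation of the cycle. Ehhadh (ENSMUSG00000022853), at chr16:21761287-21787807 on the minus strand (GRCm38, GENCODE M21, as for the positions that follow), encodes the L-bifunctional enzyme, which is known for its large induction by PPARA ligands and its part in dicarboxylic acid oxidation. It had the largest fasting response of the 9 genes in both genotypes. Its promoter window is shown, with those of Pex11a, Acaa1b and Crot, because Ehhadh, Pex11a and Acaa1b had the largest folds in Plin2-null livers and Crot the smallest. Each runs from 250 bases before to 50 bases after the gene's start in RefSeq (GRCm38.p6) and is given 5′ to 3′ on the gene's strand; capitals mark GGGCGG (GC box) and CCAAT on either strand. The windows are chr16:21787785-21788084, chr7:79743082-79743381, chr9:119157044-119157343 and chr5:8997097-8997396, all on the minus strand.
Ehhadh: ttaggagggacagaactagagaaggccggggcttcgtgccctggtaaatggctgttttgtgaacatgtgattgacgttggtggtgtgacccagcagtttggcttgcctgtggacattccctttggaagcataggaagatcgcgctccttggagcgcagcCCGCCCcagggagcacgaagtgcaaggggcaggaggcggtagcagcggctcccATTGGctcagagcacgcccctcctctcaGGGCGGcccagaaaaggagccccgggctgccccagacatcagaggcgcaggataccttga
Pex11a: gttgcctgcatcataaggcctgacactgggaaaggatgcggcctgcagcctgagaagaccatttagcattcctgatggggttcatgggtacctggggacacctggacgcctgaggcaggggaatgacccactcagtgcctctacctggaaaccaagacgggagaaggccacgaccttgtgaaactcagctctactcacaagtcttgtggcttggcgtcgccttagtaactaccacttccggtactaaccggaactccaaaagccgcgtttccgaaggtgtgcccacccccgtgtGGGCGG
Acaa1b: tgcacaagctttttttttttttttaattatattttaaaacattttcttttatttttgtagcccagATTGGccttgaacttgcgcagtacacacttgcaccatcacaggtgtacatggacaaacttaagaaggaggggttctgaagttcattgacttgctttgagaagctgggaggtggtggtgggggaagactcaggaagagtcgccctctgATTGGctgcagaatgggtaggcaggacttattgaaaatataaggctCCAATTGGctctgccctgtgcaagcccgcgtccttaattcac
Crot: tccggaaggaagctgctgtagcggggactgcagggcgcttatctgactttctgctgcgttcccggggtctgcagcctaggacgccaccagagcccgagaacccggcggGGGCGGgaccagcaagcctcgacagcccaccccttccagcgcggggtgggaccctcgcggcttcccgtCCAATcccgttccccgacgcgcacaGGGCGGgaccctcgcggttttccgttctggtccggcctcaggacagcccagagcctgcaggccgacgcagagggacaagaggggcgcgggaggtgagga

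The windows of Ehhadh, Acaa1a, Crot, Ech1 and Pex11a hold a GC box and those of Ehhadh, Acaa1a, Acaa1b and Crot hold CCAAT, while TATAAA was found in none; of 32851 windows of all genes 35.7% hold GGGCGG, 37.4% hold CCAAT and 13.6% hold TATAAA. No window on chromosome 18 was used for the 9 genes, so Hsd17b4 was left out by choice, and Abcd2 had no window. The search covered 8 windows of the other 7 genes. None of them holds the PPARA response element, searched on both strands as 2 copies of AGGTCA with any 1 base between them, with up to 3 mismatches, and none holds a single AGGTCA. Over all genes 24.6% of windows match the element with up to 3 mismatches, 3.86% with up to 2 and 0.554% with at most 1, and 16.3% hold AGGTCA. These letters are absent from windows of 300 bases only. GC content of the windows ran from 43.7% (Acaa1b) to 76.3% (Abcd3).

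Ehhadh reached 3961, 4851, 5331, 4661 and 5743 CPM in the 5 Plin2-null fasted livers, against 321, 233, 253, 241 and 235 CPM in the 5 Plin2-null fed livers. In Plin2+/+ mice it had 5103, 3166, 3401, 3949.6 and 4212 CPM in fasted livers and 513, 307, 286, 301 and 295 CPM in fed livers. Fasted and fed libraries were far apart in both genotypes, and 1 fed library of each genotype stood above the other 4 of its group. The log2 fold change was 4.26 ± 0.19 (SE) in Plin2-null mice, 19.1-fold, with an edgeR adjusted p of 1.26e-12. In Plin2+/+ mice it was 3.54 ± 0.18, 11.6-fold, with an adjusted p of 8.79e-12.

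Hsd17b4 (ENSMUSG00000024507; chr18:50128201-50196269, plus strand) encodes the D-bifunctional enzyme, which serves very-long-chain and branched substrates and bile acid intermediates. It had 982, 1058, 1234, 962 and 971 CPM in Plin2-null fasted livers and 351, 291, 254, 322 and 274 CPM in Plin2-null fed livers. Plin2+/+ livers had 859, 983, 907, 945 and 973 CPM when fasted and 386, 379, 283, 223 and 300.1 CPM when fed. No fasted library overlapped a fed one, and the 5 Plin2+/+ fasted libraries lay within a CV of 5.43%. On the log2 scale the change was 1.80 ± 0.14 in Plin2-null mice (adjusted p = 1.80e-09) and 1.57 ± 0.13 in Plin2+/+ mice (adjusted p = 9.07e-09).

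The balance between the 2 bifunctional enzymes is given as a TPM ratio, with no test. The level of this ratio depends on the merged-exon lengths, 2981 bases for Ehhadh and 3404 for Hsd17b4. A single transcript of Hsd17b4 has 2684 bases. The TPM ratio of Ehhadh to Hsd17b4 was 4.60, 5.23, 4.93, 5.53 and 6.75 in Plin2-null fasted livers, against 1.04, 0.915, 1.14, 0.854 and 0.98 in Plin2-null fed livers. It was 6.78, 3.68, 4.28, 4.77 and 4.94 in Plin2+/+ fasted and 1.52, 0.925, 1.16, 1.54 and 1.12 in Plin2+/+ fed livers. Fed livers held about equal TPM of both, with means of 0.986 ± 0.11 in Plin2-null and 1.25 ± 0.268 in Plin2+/+ mice, and fasted livers held more Ehhadh, with means of 5.41 ± 0.826 and 4.89 ± 1.16 (SD, n = 5 each). Fasted and fed ranges were apart in each genotype, and the genotype ranges overlapped in each feeding state.

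Acaa1a and Acaa1b encode ketoacyl-CoA thiolases, which make the last cut of the cycle, and are near copies on chromosome 9: Acaa1a (ENSMUSG00000036138) at chr9:119339676-119350299, plus strand, and Acaa1b (ENSMUSG00000010651) at chr9:119148023-119157093, minus strand. Their coding sequences of 1275 bases are 96.5% identical, with 44 differing positions, no gap and a longest identical run of 327 bases. Of the 50-base windows of the Acaa1a-201 transcript 34% occur in Acaa1b, and 35.5% of those of Acaa1b-201 occur in Acaa1a, so how the counting treated reads that match both bears on their split. Bases 1 to 120 of both coding sequences (GENCODE M21) are shown to give the scale of this likeness, with the 4 differing bases in capitals.
Acaa1a: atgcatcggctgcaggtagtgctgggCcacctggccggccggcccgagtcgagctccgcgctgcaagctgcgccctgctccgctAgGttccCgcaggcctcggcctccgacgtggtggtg
Acaa1b: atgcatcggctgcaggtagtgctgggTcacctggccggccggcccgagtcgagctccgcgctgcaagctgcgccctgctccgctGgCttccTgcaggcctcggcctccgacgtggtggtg

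Of the other 7 genes, only Abcd2 shared any 50-base window with another gene (0.474% of its windows). Acaa1a also shares 290 exon bases (6.6%) with Myd88 and Acaa1b 224 (11.4%) with Dlec1, both on the opposite strand. Of Crot 166 exon bases (3.0%) likewise face Gm37153. The sources used here do not state whether counting used strand, so the counts of these 3 genes carry that uncertainty.

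Acaa1b had the most variable levels of the 9 genes. Its CPM was 567, 820.4, 877, 932 and 1016 in Plin2-null fasted livers and 234, 148, 161, 101 and 171 in Plin2-null fed livers. In Plin2+/+ mice it was 477, 367, 283, 638 and 643 in fasted livers and 356, 292, 205, 88.0 and 253 in fed livers. The Plin2-null states were apart, whereas 1 Plin2+/+ fasted library, at 283 CPM, lay below the highest 2 Plin2+/+ fed libraries. The log2 fold change was 2.37 ± 0.31 in Plin2-null mice (adjusted p = 8.69e-06) and 1.01 ± 0.30 in Plin2+/+ mice (adjusted p = 0.0110), and the coefficient of variation within a group reached 42.2% in Plin2+/+ fed livers.

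Acaa1a was lower and less variable, with 111, 134, 155, 175 and 136 CPM in Plin2-null fasted livers and 50.1, 53.7, 38.2, 34.7 and 37.5 CPM in Plin2-null fed livers. Plin2+/+ livers had 89.1, 105, 154, 118 and 146 CPM after fasting and 48.6, 48.8, 42.5, 29.0 and 64.0 CPM on chow. Fasted and fed ranges did not overlap in either genotype. Fasting changed Acaa1a by 1.73 ± 0.19 on the log2 scale in Plin2-null mice (adjusted p = 3.93e-07) and 1.39 ± 0.19 in Plin2+/+ mice (adjusted p = 4.47e-06).

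Acaa1b made up 92.9 ± 0.935% of the thiolase TPM in Plin2-null fasted, 89.1 ± 2.52% in Plin2-null fed, 89.0 ± 4.93% in Plin2+/+ fasted and 91.2 ± 2.78% in Plin2+/+ fed livers (SD, n = 5 each). The lowest library was 1 of the Plin2+/+ fasted group, and the 5 Plin2-null fasted libraries lay between 92.0 and 94.4%, above the 5 Plin2-null fed libraries at 86.1 to 91.3%. The Plin2+/+ states overlapped. From CPM, with no division by length, the share was 85.4% in Plin2-null fasted and 78.6% in Plin2-null fed livers. In Plin2+/+ mice it was 78.5% in fasted and 82.3% in fed livers. The TPM lengths follow merged exons, with 4414 bases for Acaa1a and 1962 for Acaa1b. The transcripts Acaa1a-201 and Acaa1b-201 have 1762 and 1689 bases.

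Ech1 (ENSMUSG00000053898; chr7:28825217-28832247, plus strand) encodes a dienoyl-CoA isomerase needed for some unsaturated fatty acids, found in both peroxisomes and mitochondria. It had 437, 559.7, 478, 454 and 493 CPM in Plin2-null fasted livers and 169, 165, 149.7, 154 and 157 CPM in Plin2-null fed livers. In Plin2+/+ mice the values were 383, 462, 519, 516 and 483 CPM in fasted and 185, 252, 172, 107 and 183 CPM in fed livers. The 5 Plin2-null fed libraries were the tightest group of all 9 genes (CV 5.09%), the Plin2+/+ fed libraries spread more widely, and fasted and fed did not overlap. Its log2 fold change was 1.61 ± 0.15 in Plin2-null mice (adjusted p = 4.74e-08) and 1.39 ± 0.15 in Plin2+/+ mice (adjusted p = 2.23e-07).

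Of the 2 transporters Abcd3 rose on fasting and Abcd2 did not pass the test; whether their responses differ was not tested. Abcd3 (ENSMUSG00000028127; chr3:121758774-121815302, minus strand) encodes PMP70, the abundant ABC transporter of liver peroxisomes, which imports branched and dicarboxylic acyl-CoA. It had 1022, 1135, 1173, 839 and 1082 CPM in Plin2-null fasted livers, against 470.3, 423, 396, 438 and 471 CPM in Plin2-null fed livers. In Plin2+/+ mice it had 1094, 951, 720.3, 937 and 720.5 CPM in fasted and 669, 416, 442, 331 and 478 CPM in fed livers. The lowest Plin2+/+ fasted library, at 720.3 CPM, lay just above the highest fed one, at 669 CPM, and the Plin2-null ranges were further apart. The log2 fold change was 1.26 ± 0.16 in Plin2-null mice (adjusted p = 1.95e-06) and 0.92 ± 0.16 in Plin2+/+ mice (adjusted p = 5.92e-05).

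Abcd2 (ENSMUSG00000055782; chr15:91145871-91191799, minus strand) encodes a transporter of very-long-chain and polyunsaturated acyl-CoA that is known for high levels in fat and brain. Its CPM was 99.4, 109, 98.1, 60.8 and 98.0 in Plin2-null fasted livers and 57.9, 64.4, 62.7, 89.6 and 83.9 in Plin2-null fed livers. Plin2+/+ livers had 81.4, 64.4, 39.0, 80.9 and 54.6 CPM in the fasted and 71.2, 84.5, 87.8, 71.0 and 79.3 CPM in the fed state. All 4 groups overlapped, with 4 of the 5 Plin2-null fasted libraries above every other group's highest value. The log2 fold change on fasting was 0.38 ± 0.18 in Plin2-null mice (adjusted p = 0.105) and -0.30 ± 0.18 in Plin2+/+ mice (adjusted p = 0.187). Without 1 Plin2-null fasted library, the one at 60.8 CPM, the Plin2-null value was 0.50 and passed (adjusted p = 0.0270), and with each library's trend on GC content removed the Plin2+/+ value was -0.47 and passed (adjusted p = 0.0245).

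Crot (ENSMUSG00000003623; chr5:8966033-8997324, minus strand) encodes carnitine O-octanoyltransferase, which turns medium-chain products into carnitine esters for export. It had the highest mean TPM of the 9 genes in fed livers and did not pass the test on fasting. Its CPM was 1019, 1282, 1022, 974 and 956 in Plin2-null fasted and 954, 780.3, 878, 1051 and 859 in Plin2-null fed livers. Plin2+/+ livers had 1087, 909, 648, 1080.0 and 779 CPM when fasted and 955, 867, 931, 717 and 920.4 CPM when fed. The states overlapped in both genotypes. The log2 fold change was 0.22 ± 0.14 in Plin2-null mice (95% interval -0.05 to 0.48, adjusted p = 0.226) and 0.04 ± 0.14 in Plin2+/+ mice (95% interval -0.23 to 0.30, adjusted p = 0.854). These intervals, the estimate ± 1.96 SE, lie below the estimate of each of the 7 genes that rose.

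Pex11a (ENSMUSG00000030545; chr7:79735957-79743131, minus strand) encodes a membrane protein that elongates peroxisomes before they divide. It rose most after Ehhadh, with 237, 255, 247, 261 and 302 CPM in Plin2-null fasted livers, against 39.3, 23.6, 26.1, 28.5 and 34.2 CPM in Plin2-null fed livers. Plin2+/+ mice had 250.4, 212, 221, 239.6 and 222 CPM in fasted and 46.1, 40.0, 28.7, 28.4 and 33.7 CPM in fed livers. The lowest fasted library stood several fold above the highest fed library in both genotypes. Its log2 fold change was 3.10 ± 0.15 in Plin2-null mice, 8.59-fold (adjusted p = 2.21e-12), and 2.69 ± 0.15 in Plin2+/+ mice, 6.47-fold (adjusted p = 2.21e-11).

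**Figure D3:**
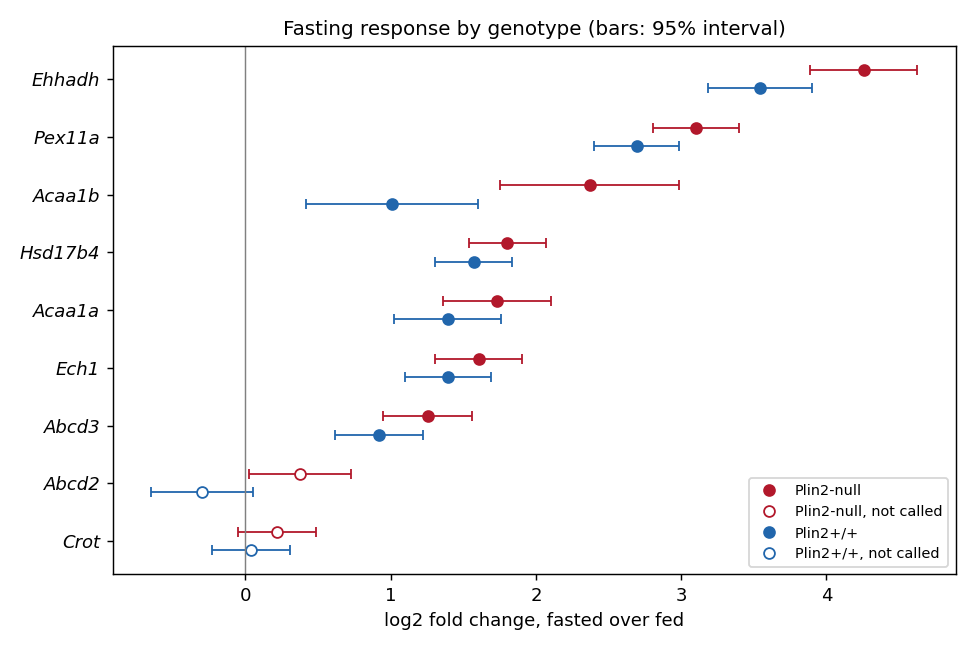
Log2 fold change of fasted over fed livers for the 9 genes in Plin2-null (red) and Plin2+/+ mice (blue), with 95% intervals (estimate ± 1.96 SE); filled points passed an adjusted p under 0.05. Ehhadh lies furthest right at 4.26 and 3.54. Crot (0.22 and 0.04) and Abcd2 (0.38 and -0.30) have open points in Plin2-null and Plin2+/+ mice.

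Of 11 further oxidation enzymes 8 rose and 1 fell on fasting in Plin2-null mice, and 7 rose and 1 fell in Plin2+/+ mice, with median log2 fold changes of 0.57 and 0.55. On the TPM scales 5 rose in Plin2-null mice. Decr2, a dienoyl-CoA reductase, rose by 1.31 in Plin2-null and 1.03 in Plin2+/+ mice on the log2 scale, Eci2, an enoyl-CoA isomerase, by 1.30 and 1.17, and Aldh3a2, a fatty aldehyde dehydrogenase, by 1.68 and 1.52. The gene that fell, named after its values were seen, was Pecr, an enoyl-CoA reductase of chain elongation, at -0.50 and -0.75.

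Of 13 tested genes of acyl import, thioesterases and export (Acot5 was not tested) 8 rose and 2 fell in each genotype, with medians of 1.14 in Plin2-null and 0.90 in Plin2+/+ mice. Crat, carnitine acetyltransferase, rose by 2.58 in Plin2-null and 2.16 in Plin2+/+ mice, and Slc27a2, a very-long-chain acyl-CoA synthetase, by 1.88 and 1.84. The thioesterase genes Acot12 (1.20 and 1.19) and Acot8 (1.98 and 1.37) rose as well; ACOT12 is known as a cytosolic enzyme. Those that fell, named after their values were seen, were Nudt7, a coenzyme A diphosphatase, at -1.79 and -2.16, and Slc25a17, a cofactor carrier, at -0.42 and -0.44.

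Of 18 tested peroxin and division genes (Gdap1 was not tested) 9 rose and none fell in Plin2-null mice, and 9 rose and 2 fell in Plin2+/+ mice, with medians of 0.33 and 0.46. On the TPM scales 4 rose and 2 fell in Plin2-null mice, and with library size alone 2 fell in Plin2-null and 4 in Plin2+/+ mice. With the GC trend removed 4 fell in Plin2+/+ mice. The responses were smaller than that of Pex11a. The membrane biogenesis genes Pex3 (0.93 in Plin2-null and 0.80 in Plin2+/+ mice) and Pex19 (0.94 and 0.69) rose, as did the import gene Pex14 (1.20 and 0.56). The Plin2+/+ rise of Pex14 was lost with library size alone (adjusted p = 0.117), log2(TPM + 1) (0.187) and log2(TPM + 0.1) (0.182), without Plin2+/+ fasted replicate 5 (0.0751) and without Plin2+/+ fed replicate 4 (0.0616). Pex11g, a paralog of Pex11a, and Fis1, a fission adaptor, fell in Plin2+/+ mice by 0.52 and 0.29 on the log2 scale and did not pass in Plin2-null mice (-0.21 and 0.04); both were named after their values were seen, and whether the genotypes differ in them is given by interaction adjusted p-values of 0.502 and 0.326 in edgeR. The fall of Fis1 was lost without Plin2+/+ fasted replicate 1 (adjusted p = 0.0805) and without Plin2+/+ fed replicate 2 (0.0519) or 5 (0.0787).

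Peroxisomal enzymes outside fatty acid oxidation did not move one way. Of 15 tested (Dao was not tested) 5 rose and 5 fell in Plin2-null mice and 4 rose and 6 fell in Plin2+/+ mice, with medians of -0.15 and -0.08. Ephx2, the soluble epoxide hydrolase, rose by 1.88 and 1.63 and Pxmp4, a membrane protein, by 1.27 and 1.15 in Plin2-null and Plin2+/+ mice. Hao1, a hydroxyacid oxidase, fell by 1.32 and 1.20 and Pipox, a pipecolic acid oxidase, fell by 0.89 and 0.77 on the log2 scale. The others that fell, named after their values were seen, were Idh1, the cytosolic and peroxisomal isocitrate dehydrogenase (-0.62 and -0.88), Far1, a fatty acyl-CoA reductase of ether lipid synthesis (-0.62 and -0.63), Baat, which conjugates bile acids (-0.40 and -0.54), and, in Plin2+/+ mice, catalase (Cat, -0.49; -0.22 in Plin2-null mice, not passing). The Plin2-null fall of Baat was lost without Plin2-null fasted replicate 1 (adjusted p = 0.0583) or 4 (0.0797) and without Plin2-null fed replicate 3 (0.0551) or 4 (0.0907). Cat also passed in Plin2-null mice with library size alone (-0.44, adjusted p = 0.00519), on the TPM scales (-0.52 on both) and with the 18S rRNA-like covariate (-0.33, adjusted p = 0.0393). With library size alone or on the TPM scales, 3 of these genes rose and 8 fell in Plin2-null mice and 2 rose in Plin2+/+ mice.

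Outside the peroxisome, 14 of 16 genes of PPARA and its textbook targets rose and none fell in each genotype, with medians of 2.37 in Plin2-null and 3.29 in Plin2+/+ mice; Rxra and Fabp1 did not pass. Examples are Cpt1a, the gatekeeper of mitochondrial import (2.00 and 1.75), Cpt2, its inner-membrane partner (1.53 and 1.36), Acot2, a mitochondrial thioesterase (4.98 and 4.41), and Cyp4a31, of the omega-hydroxylase family (3.68 and 3.66). Of 11 mitochondrial beta-oxidation genes 10 rose and none fell in Plin2-null mice and 7 rose and 1 fell in Plin2+/+ mice, with medians of 1.36 and 1.19. The dehydrogenases Acadm (1.95 and 1.79) and Acadl (1.44 and 1.47) and the trifunctional protein genes Hadha (1.36 and 1.19) and Hadhb (1.65 and 1.66) rose. The gene that fell in Plin2+/+ mice, named after its values were seen, was Echs1, a mitochondrial enoyl-CoA hydratase (-0.29; -0.11 in Plin2-null mice, not passing). The Plin2+/+ call of Echs1 was lost with no filter (adjusted p = 0.0505), with the compared groups alone (0.0580), without Plin2+/+ fasted replicate 1 (0.0989) or 5 (0.0719) and without Plin2+/+ fed replicate 3 (0.0773) or 5 (0.0826); in Plin2-null mice Echs1 passed with library size alone (-0.33, adjusted p = 0.0336) and on the TPM scales (-0.40 and -0.41).

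**Figure D4:**
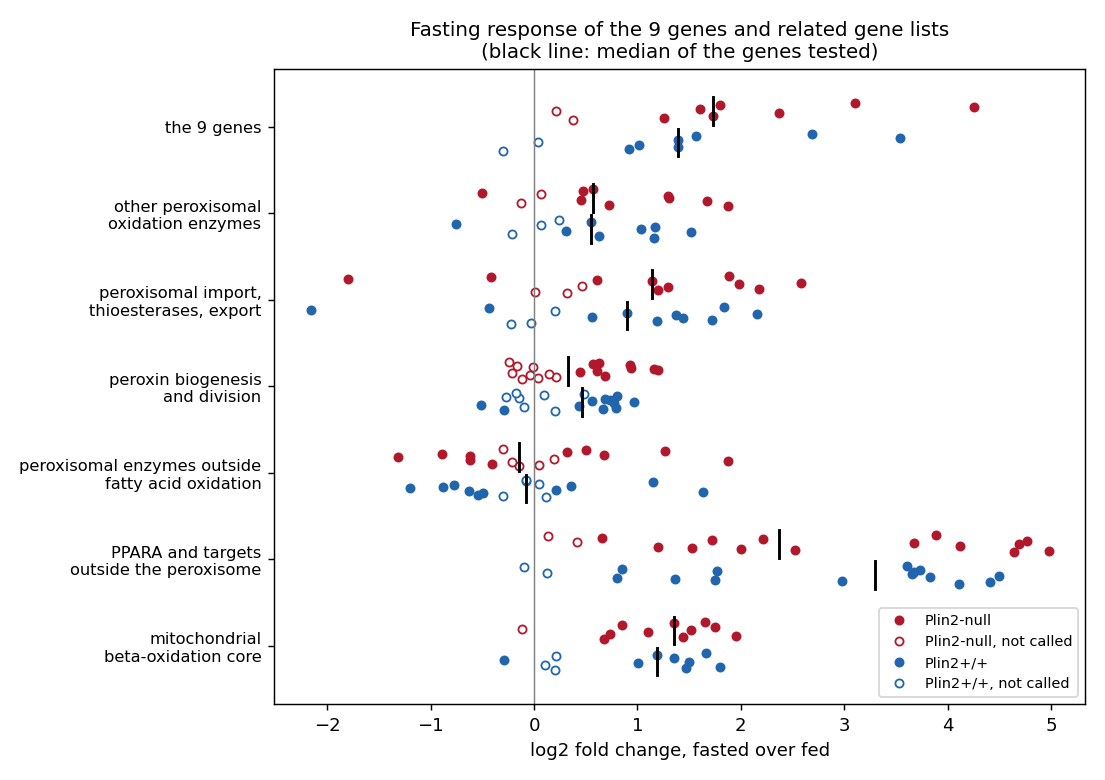
Log2 fold change of fasted over fed livers for the 9 genes and 6 lists of related genes (rows), with Plin2-null mice above Plin2+/+ mice in each row; points are genes, filled where the adjusted p was under 0.05, and black lines are medians. The 9 genes have medians of 1.73 and 1.39, and peroxisomal enzymes outside fatty acid oxidation have medians of -0.15 and -0.08.

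Genes other than the members were ranked by how closely their levels followed each member. The ranking used Pearson's r of log2 CPM over the 20 libraries, among 8817 genes with a mean of at least 5 CPM. All 20 libraries share the split between fasted and fed, so the values are descriptions, and r with group means removed is given for several of them. Among the ranked genes Ehhadh was closest to Tor1b (0.992), Acot2 (0.991) and Cpt1a (0.986), and Pex11a to Tor1b (0.992), Crat (0.991) and Acad11 (0.990). Ehhadh and Pex11a were closer to each other (0.995) than to any ranked gene. Hsd17b4 was closest to Acad11 (0.995), Cpt2 (0.994) and Hadha (0.992), and Ech1 to Acadvl (0.989), Eci1 (0.987) and Hadha (0.987). Acaa1a was followed by Gstt2 (0.981), Agpat3 (0.980) and Rtf2 (0.977), Acaa1b by Mgll (0.980), Acsf2 (0.949) and Ly6d (0.939) and Abcd3 by Igsf11 (0.970), Etfdh (0.967) and Abhd6 (0.964). For Abcd2 the closest genes were Dazap2 (0.825), Ugt2b35 (0.774) and Lipa (0.768), and for Crot Rtn4 (0.810), Endod1 (0.809) and Msh3 (0.804), so neither had a partner above 0.83.

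With group means removed, r with these 3 genes lay between 0.868 and 0.891 for Hsd17b4, between 0.744 and 0.939 for Acaa1b and between 0.267 and 0.855 for Ehhadh, whose lowest was Cpt1a. For Crot it lay between 0.804 and 0.827, close to the r over all libraries, and for Abcd2 between 0.657 and 0.765. Among the 9 genes themselves, Ehhadh and Pex11a had an r of 0.995 over 20 libraries and 0.700 with group means removed, and Hsd17b4 and Ech1 had 0.979 and 0.728. Abcd2 and Crot, which did not pass the test on fasting, had an r of 0.726 with each other and 0.717 with group means removed, while Abcd2 and Ehhadh had 0.064 and 0.031. Single libraries stood out for several genes at once: 1 Plin2+/+ fed library was the lowest of its group for 8 of the 9 genes and another was the highest for 6, and 1 Plin2-null fasted library was the lowest for 5. The share of all genes for which these libraries were lowest or highest was not computed, so whether the 9 genes differ from other genes here was not tested.

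The genotype comparison in fasted livers called none of the 9 genes in edgeR, where 3.24% of all genes passed in either direction; 2 of the 9 were under an unadjusted p of 0.05, beside 24.3% of all genes. DESeq2 called 1 of them, Abcd2, beside 630 of all 16312 genes called higher and 803 lower. In limma voom none of the 9 was called, beside 292 of all genes higher and 285 lower. Every log2 difference was above 0, with a median of 0.22 beside 0.02 over all genes, and all 9 pairs of ranges overlapped (1.87% of all genes were higher and 2.21% lower without overlap). The number of all genes called was unstable, from 13 to 1794 when single libraries were left out. With the GC trend removed 2 of the 9 differences were below 0, with the 18S rRNA-like share as a covariate 1 was, on the TPM scales 1 was, and without 1 Plin2+/+ fasted or 1 Plin2-null fasted library 1 was. With library size as the only scaling 70 of all genes were called higher and 38 lower, against 246 and 282 with TMM.

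Abcd2 averaged 93.1 ± 18.6 CPM in Plin2-null fasted and 64.0 ± 18.0 CPM in Plin2+/+ fasted livers (SD, n = 5 each), a log2 difference of 0.54 ± 0.18 with an adjusted p of 0.0833. It passed with DESeq2 (0.53, adjusted p = 0.0496), with the GC trend removed (0.70, adjusted p = 0.0311) and without the Plin2-null fasted library at 60.8 CPM (0.66, adjusted p = 0.0350) or the Plin2+/+ fasted library at 80.9 CPM (0.64, adjusted p = 0.0480), and adjusted p-values over all alternatives ran from 0.0311 to 0.245. Acaa1b averaged 843 ± 170.1 CPM in Plin2-null fasted and 482 ± 161 CPM in Plin2+/+ fasted livers, a log2 difference of 0.81 ± 0.30 (95% interval 0.22 to 1.40, adjusted p = 0.117). Ehhadh averaged 4909.5 ± 678 CPM in Plin2-null fasted and 3966 ± 760.5 CPM in Plin2+/+ fasted livers, a log2 difference of 0.31 ± 0.16 (95% interval -0.01 to 0.63, adjusted p = 0.251).

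For the other 6 genes the log2 differences in fasted livers ran from 0.04 for Ech1 (95% interval -0.26 to 0.33) to 0.25 for Abcd3 (95% interval -0.06 to 0.55). Those intervals do not show that the genotypes are alike. In the lists of related genes, edgeR called 1 of 18 tested peroxin and division genes, beside 3.24% of all genes. It called 1 of 13 tested genes of acyl import, thioesterases and export, and none in the other lists. The peroxin gene was Pex5, the receptor for imported matrix proteins. Pex5 averaged 116 ± 14.0 CPM in Plin2-null fasted and 87.4 ± 9.94 CPM in Plin2+/+ fasted livers (SD, n = 5 each). Its log2 difference was 0.41 ± 0.10 (edgeR adjusted p = 0.0372). The call of Pex5 was lost with library size alone (adjusted p = 0.127), no filter (0.0686), the compared groups alone (0.0924), the 18S rRNA-like share as a covariate (0.0952), the GC trend removed (0.117), log2(TPM + 1) (0.250) and log2(TPM + 0.1) (0.233). It was also lost without Plin2-null fasted replicate 3 (adjusted p = 0.0999), 4 (0.0506) or 5 (0.0917) and without Plin2+/+ fasted replicate 1 (0.0864), 2 (0.119) or 3 (0.0903).

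In fed livers none of the 9 genes was called for genotype by edgeR, DESeq2 or limma voom, where edgeR called 0.0184% of all genes; 1 of the 9 was under an unadjusted p of 0.05, beside 4.25% of all genes. Ehhadh averaged 257 ± 36.7 CPM in Plin2-null fed and 341 ± 96.7 CPM in Plin2+/+ fed livers, a log2 difference of -0.41 ± 0.16 (adjusted p = 1.00), and all 9 pairs of ranges overlapped (0.423% of all genes were higher and 0.454% lower without overlap). Of the 9 differences 8 were below 0 with TMM scaling, 7 with library size as the only scaling, 6 on the TPM scales, and 6 to 9 when single libraries were left out. The median was -0.14, beside 0.00 over all genes.

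**Figure D5:**
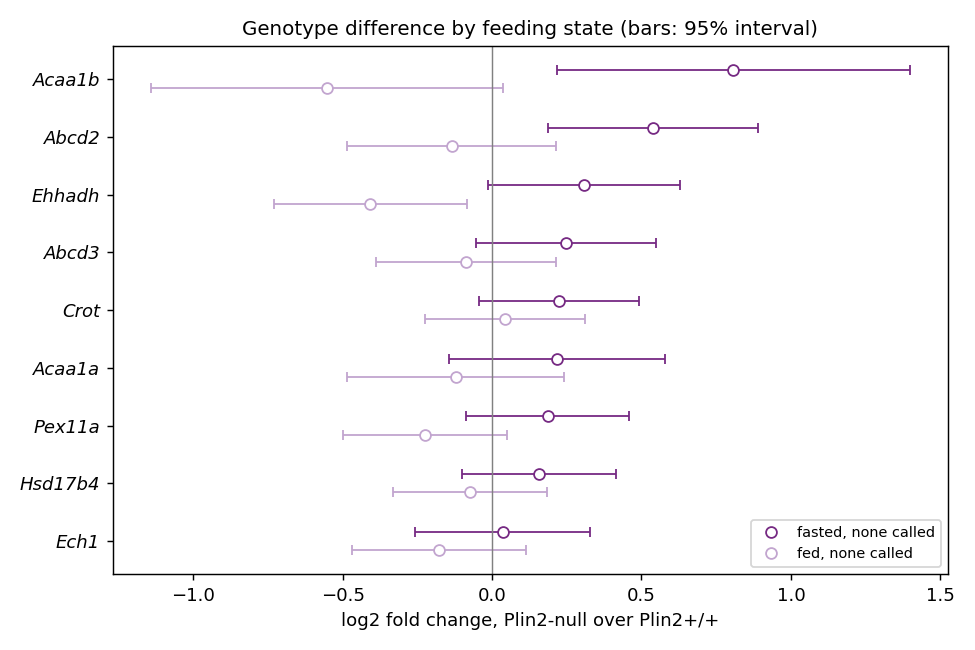
Log2 fold change of Plin2-null over Plin2+/+ livers for the 9 genes in fasted (dark) and fed mice (light), with 95% intervals (estimate ± 1.96 SE); open points did not pass an adjusted p under 0.05. The fasted estimates lie between 0.04 for Ech1 and 0.81 for Acaa1b, and no point is filled.

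Whether fasting acted differently in the 2 genotypes was tested by the interaction, which subtracts the fed from the fasted genotype difference and uses the same libraries as the comparisons above. None of the 9 genes was called by edgeR, DESeq2 or limma voom, and edgeR called 0% of all genes, while DESeq2 called 63 of all genes and limma voom 2. Under an unadjusted p of 0.05 were 4 of the 9, beside 13.8% of all genes. Acaa1b had an interaction of 1.36 ± 0.43 (unadjusted p = 0.00468, adjusted p = 0.243 in edgeR), and its fasting log2 fold change was 2.37 ± 0.31 in Plin2-null and 1.01 ± 0.30 in Plin2+/+ mice. Ehhadh had 0.72 ± 0.23 (adjusted p = 0.247), Abcd2 0.68 ± 0.25 (adjusted p = 0.277) and Pex11a 0.41 ± 0.20 (adjusted p = 0.361). Over all alternatives the adjusted p ran from 0.0899 to 0.524 for Acaa1b and from 0.132 to 0.553 for Ehhadh. The other 5 genes had interactions of 0.18 for Crot to 0.34 for Acaa1a, and the median of the 9 was 0.34 beside 0.02 over all genes.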

How the data were processed

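Liver RNA was sequenced as stranded mRNA libraries, per the labels' protocols. Deposited were raw counts for each Ensembl mouse gene and, in a second file, TPM values. HISAT2 1.2.1 and featureCounts 1.4.6-p1 made the alignments and counts, per the submitters' processing notes, where the human build GRCh38 stands beside mouse identifiers; the build behind the counts is therefore unclear, and neither the annotation version nor the strand setting is stated in the sources used here. The deposited TPM values are the counts per length scaled to 1 sum per library: among 7109 genes above 200 counts throughout, the quotient of count and TPM, after 1 factor per library, varied by a relative SD of at most 1.05e-09. Symbols matched 55141 of 55487 identifiers, positions and transcripts came from GENCODE M21 (GRCm38), and promoter windows from RefSeq (GRCm38.p6).

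Libraries were grouped by their labels. Every library counted as 1 replicate. Of 40 pairs within groups, the closest had a chi-square of 45.3 per degree of freedom (genes with a summed count above 20). Raw counts entered this value, those of 18S rRNA-like sequence among them, so it cannot show that libraries came from separate mice. Counts were fitted in R 4.3.3 with edgeR 4.0.16 (filterByExpr, TMM, glmQLFit robust, glmQLFTest) over all 20 libraries with 1 coefficient per group; p-values were adjusted over all 16312 genes by Benjamini-Hochberg, and SE is the absolute log2 fold change divided by √F. The fit was tested on simulated counts. Log2 CPM used a prior count of 2. Alternatives were DESeq2 1.42.0, limma 3.58.1 (voom, log2(TPM + 1), log2(TPM + 0.1)), RLE scaling, scaling by library size alone, a stricter filter or none, the compared groups alone and each library left out. The 18S rRNA-like covariate, the GC trend, the response element searches with up to 1 or 3 mismatches and the GC box, CCAAT and TATAAA searches were added after seeing the data. Named were all 9 genes and Plin2, and up to 4 genes per list with the smallest adjusted p on fasting in Plin2-null mice. Also named were listed genes called for genotype or interaction and, for each member, the 3 ranked genes most like it. Some genes that this rule names are not reported here. The 9 genes and the lists were chosen with earlier results of these data known. Figures used matplotlib 3.10.9.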

Additional observations from a re-analysis of the deposited data

Results flagged for a closer look

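In 4 of 48 groups of 5 libraries (9 genes and 3 TPM quantities in 4 groups), 1 library stood apart from the others by Dixon's ratio above 0.71; chance flags about 1 group in 20. Ehhadh had 1 Plin2-null fed library at 321 CPM, the highest of its group, and 1 Plin2+/+ fed library at 513 CPM, the highest of its group. Abcd2 had 1 Plin2-null fasted library at 60.8 CPM, the lowest of its group. Crot had 1 Plin2-null fasted library at 1282 CPM, the highest of its group. Without the Ehhadh library at 321 CPM the fasting log2 fold change was 4.35 in Plin2-null mice, and without that at 513 CPM it was 3.74 in Plin2+/+ mice.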

How the results depend on the processing

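The 7 genes that rose on fasting passed under every alternative in both genotypes, and no called value changed sign. Of the other values of the 9 genes, those of Abcd2 passed in 6 alternatives, given above. Acaa1b in Plin2+/+ mice ranged from 0.79 (adjusted p = 0.0471, without 1 Plin2+/+ fed library) to 1.20.

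The TPM scales called 1014 genes higher and 4566 lower (+ 1) or 1008 and 4561 (+ 0.1) in Plin2-null mice, and 1567 and 3623 or 1569 and 3723 in Plin2+/+ mice; the 18S rRNA-like covariate gave 80 and 58 for genotype in fasted mice. With either TPM scale, in Plin2-null mice 5 further oxidation enzymes rose, 4 peroxin genes rose and 2 fell, 3 enzymes outside fatty acid oxidation rose and 8 fell, and 1 mitochondrial gene fell; in Plin2+/+ mice 2 enzymes outside fatty acid oxidation rose. Library size alone gave 2 peroxin genes falling, 3 outside enzymes rising and 8 falling, and 1 mitochondrial gene falling in Plin2-null mice, and 4 peroxin genes falling and 2 outside enzymes rising in Plin2+/+ mice. The 18S rRNA-like covariate and the removed GC trend each left 3 outside enzymes rising in Plin2-null mice, and the removed GC trend gave 1 of the 9 genes (Abcd2) and 4 peroxin genes falling in Plin2+/+ mice and 1 of the 9 (Abcd2) called for genotype in fasted mice, as did DESeq2. In Plin2+/+ mice the stricter filter gave 4494 genes called, against 6957, with 2 further oxidation enzymes falling and 2 outside enzymes rising; no filter, or the compared groups alone, gave 2 outside enzymes rising and 0 mitochondrial genes falling.

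The genotype comparison in fasted mice called 528 genes, against 108 with library size alone, 319 with no filter, 104 with the compared groups alone, 138 with the covariate, 1433 with DESeq2, 27 with log2(TPM + 1) and 39 with log2(TPM + 0.1). In fed mice DESeq2 called 7 genes, against 3. The interaction called 1 gene with no filter, 63 with DESeq2 and 2 with limma voom, against 0. From CPM in place of TPM, the ratio of Ehhadh to Hsd17b4 was 0.864 in Plin2-null fed livers, and the Acaa1b share was 85.4% in Plin2-null fasted, 78.6% in Plin2-null fed, 78.5% in Plin2+/+ fasted and 82.3% in Plin2+/+ fed livers.

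Leaving out single libraries gave 3 to 5 outside enzymes rising in Plin2-null mice; in Plin2+/+ mice it gave 1 to 2 further oxidation enzymes falling, 1 to 2 peroxin genes falling, 2 to 4 outside enzymes rising and 0 to 1 mitochondrial genes falling. It gave 0 to 1 of the 9 genes and 13 to 1794 of all genes called for genotype in fasted mice, and 0 to 1 genes for the interaction. The lowest counts for genotype were 13 without Plin2+/+ fasted replicate 2 and 15 without Plin2-null fasted replicate 5, and the highest 1794 and 963 without Plin2+/+ fasted replicates 5 and 4; without replicates 1 and 3 it was 89 and 84 (Plin2+/+ fasted) and 210 and 156 (Plin2-null fasted). The cause of these changes was not tested. No paired analysis was possible because the replicate numbers were given in accession order and pair no samples. Protein identity, C-terminal residues and the list of targeting signals were not run. Depth did not limit the 9 genes, but Acaa1a and Acaa1b share sequence.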
